A study of Mus musculus with 16 samples.

Results

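Genes of the contractile apparatus and of the nerve-muscle junction of skeletal muscle were followed in dissected tooth germs of mouse embryos. The 40 genes were chosen by their role, with earlier results of these data known. The paper lists *Ostn*, *Tnnt1*, *Chrna1*, *Klhl31* and *Synpo2l* among its genes most enriched in lower over upper molars. Counts of members set beside all probe sets are therefore a description. The folds found here for *Ostn*, *Tnnt1*, *Chrna1*, *Klhl31* and *Synpo2l* between these molars were 2.06, 1.7, 2.03, 1.59 and 1.33. Each is smaller than the fold in the paper, and *Synpo2l* did not pass the threshold used here (limma, adjusted p = 0.109). The reason for the smaller folds was not tested. The 40 were found by symbol among the 19938 genes that had a probe set with a single symbol. All 40 had a log2 signal above 5 in at least 1 sample. Total RNA came from lower incisor, mandibular first molar and maxillary first molar germs of C57Bl6 wild-type embryos at E14.5, with no allele or treatment that differed between groups. The arrays comprised 4 of incisors, 8 of mandibular molars and 4 of maxillary molars, each of a pool of 4 germs on the Affymetrix Mouse Gene ST design. The study set aside 1 incisor sample for a hybridization problem without naming it in the labels, so all 4 were used here. A germ taken by dissection holds dental epithelium and mesenchyme and whatever surrounding tissue came with it, and the sources used here do not give which embryos entered a pool, so a p-value here reflects the spread from pool to pool, which may be technical.

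As a reading of tissue content, 7 markers of dental epithelium and 7 of dental mesenchyme were followed. All of them exceeded a log2 signal of 5 in each tooth type. Of the 35556 probe sets, 29356 exceeded it in at least 1 sample, so this level does not test which tooth a label names. The mean log2 signal of the epithelial markers was 9.50 to 10.35 over the samples of all groups. That of the mesenchymal markers was 9.70 to 10.02 in incisors. It was 10.88 ± 0.12 in mandibular molars (SD, n = 8) and 11.04 ± 0.06 in maxillary molars (n = 4). Of the 7 markers 4 were higher in mandibular molars than in incisors, and the differences ran from -0.01 to 3.06 with a median of 0.38, the highest for *Barx1* and *Lhx6* (2.24).

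Skeletal muscle of the jaw and tongue forms next to the tooth germs from myoblasts that fuse into multinucleated fibres. In a fibre, myosin thick filaments pull on actin thin filaments that are anchored in the Z disc, and troponin and tropomyosin make this pull depend on calcium. Acetylcholine released by the motor nerve opens a receptor of several subunits, the membrane depolarizes, and a voltage sensor opens the calcium release channel of the sarcoplasmic reticulum. Transcription of many of these genes is driven by the myogenic factors *Myf5*, *Myod1*, *Myog* and *Myf6*, which bind a short sequence called the E-box, and in part by serum response factor, which binds the CArG box.

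Promoter sequence was available from RefSeq (GRCm38.p6) for 32 of the 40 genes. In the 250 bases before a start site, the E-box CAGCTG, a palindrome that reads the same on both strands, lay in 17 of the 32 genes (53.1%) and in 14.7% of all 27025 genes with a promoter, or in 18 of 37 promoters of the members and 13% of all 32851 promoters. The E-box CACCTG, counted on both strands, lay in 10 of the 32 and in 19.4% of all genes. A perfect MEF2 site lay in 3 of the 32 (*Ttn*, *Myoz2*, *Synpo2l*) and 0.592% of all genes, and a perfect CArG box in 3 (*Myl3*, *Acta1*, *Actc1*) and 1.62%. No match of one motif overlapped another. The windows of 4 genes that passed the threshold in both comparisons of tooth types are shown, with these motifs in capitals: both acetylcholine receptor genes among them, the intermediate filament gene *Des* and the actin gene *Actc1*. The 250 bases before *Chrna1* (chr2:73580339-73580588, minus strand) hold CAGCTG beginning 92 and 44 bases before the start and CACCTG, on the other strand, 73 bases before it. Those before *Chrng* (chr1:87205561-87205810, plus strand) hold CAGCTG at 155 and 132 bases. The window of *Des* (chr1:75360042-75360291, plus strand) has CAGCTG at 36 bases and that of *Actc1* (chr2:114052876-114053125, minus strand) a CArG box at 47 bases and neither E-box. A match of letters is a description, and binding was not measured here.
Chrna1: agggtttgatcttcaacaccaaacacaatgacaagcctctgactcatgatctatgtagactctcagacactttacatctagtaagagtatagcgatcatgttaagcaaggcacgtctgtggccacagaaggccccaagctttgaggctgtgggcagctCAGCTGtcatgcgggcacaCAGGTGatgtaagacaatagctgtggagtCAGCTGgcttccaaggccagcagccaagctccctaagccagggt
Chrng: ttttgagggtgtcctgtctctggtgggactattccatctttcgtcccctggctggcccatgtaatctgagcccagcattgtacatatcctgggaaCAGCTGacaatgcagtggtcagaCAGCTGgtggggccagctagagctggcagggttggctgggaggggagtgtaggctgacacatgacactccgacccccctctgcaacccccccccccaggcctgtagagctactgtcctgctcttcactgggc
Des: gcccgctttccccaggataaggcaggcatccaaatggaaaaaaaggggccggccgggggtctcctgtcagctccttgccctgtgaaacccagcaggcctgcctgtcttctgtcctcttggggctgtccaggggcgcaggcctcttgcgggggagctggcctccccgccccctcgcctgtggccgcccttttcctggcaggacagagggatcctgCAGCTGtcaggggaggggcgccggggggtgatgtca
Actc1: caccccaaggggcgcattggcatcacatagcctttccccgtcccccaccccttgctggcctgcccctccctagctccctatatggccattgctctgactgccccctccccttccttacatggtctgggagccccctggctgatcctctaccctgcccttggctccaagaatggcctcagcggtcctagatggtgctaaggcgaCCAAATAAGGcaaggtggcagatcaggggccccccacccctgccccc

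Muscle transcripts were highest in lower incisors, lower in mandibular molars and lowest in maxillary molars. The mean log2 signal of the 40 genes was 8.09 ± 0.06 in incisors (SD, n = 4), 7.57 ± 0.33 in mandibular molars (n = 8) and 6.75 ± 0.11 in maxillary molars (n = 4). All 40 group means stood in this order, which 38.6% of the 29356 probe sets above the filter over the 16 samples also showed. Every incisor sample lay above every maxillary molar sample for 38 of the 40 genes, against 16.5% of all probe sets. The exceptions were *Myl3* and *Tcap*. Incisors and maxillary molars were not compared by a test. The difference of their means was 0.15 to 2.96 with a median of 1.22. Mandibular molars 5 to 8 correlated more with the maxillary molars (median 0.9916) than with mandibular molars 1 to 4 (0.9845). Between these mandibular sets the 40 genes differed by a median of 0.33. Whether incisors and maxillary molars also differ by such a set cannot be told from the labels. In dissected germs, fewer muscle cells and less muscle RNA per cell cannot be told apart.

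**Figure D1:**
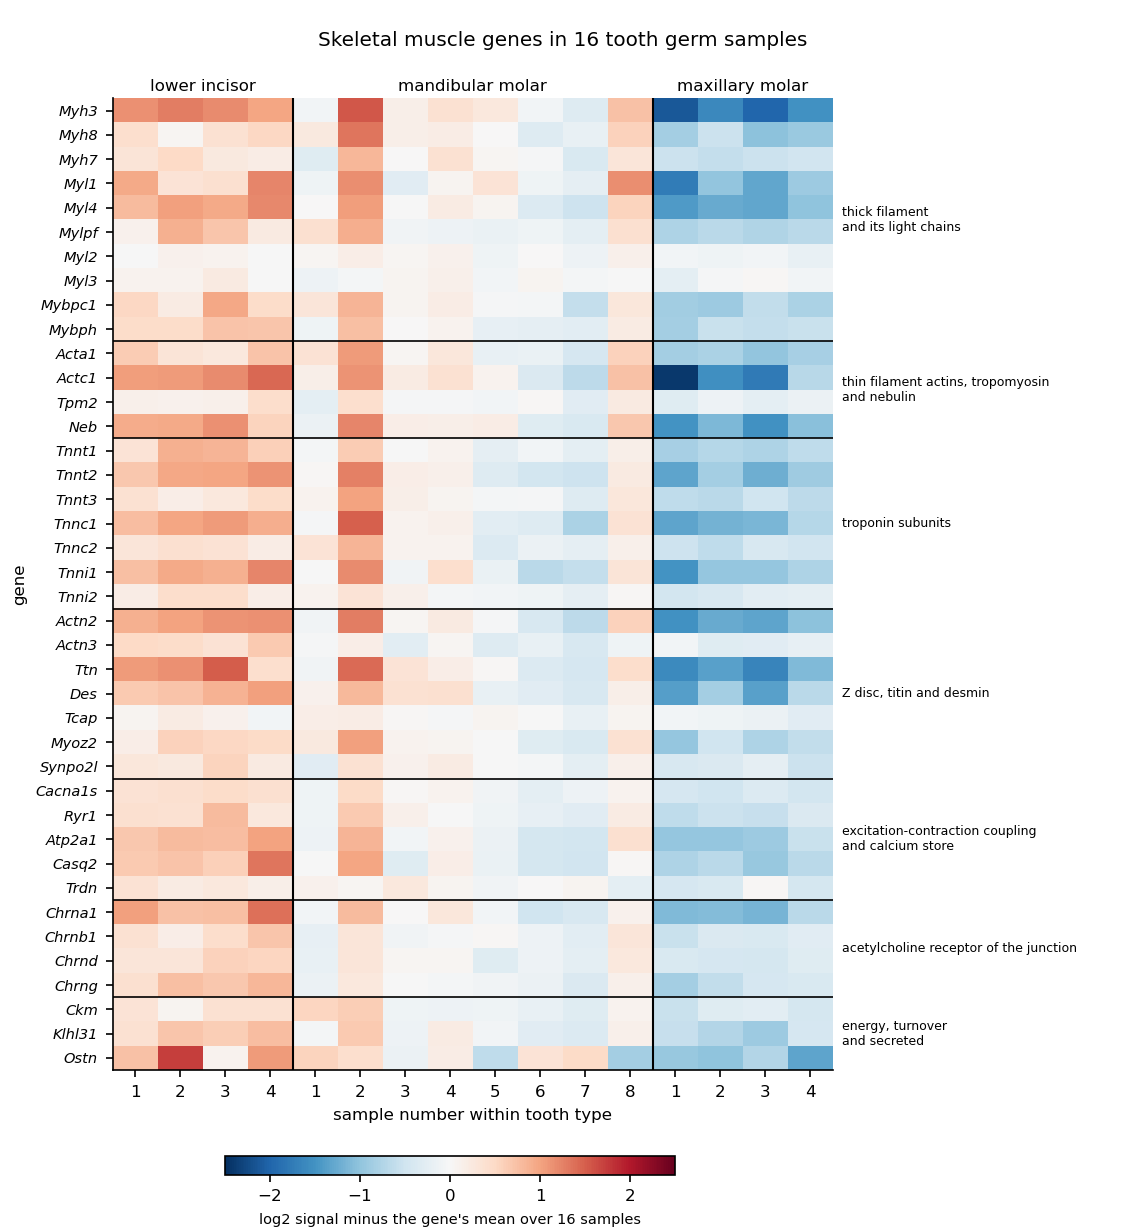
Log2 signal of each of the 40 genes (rows, grouped by role) in each of the 16 samples (columns), as the difference from the gene's mean over the 16 samples. The 4 maxillary molar columns are blue for most genes, the 4 incisor columns are red, and mandibular molar 2 is the reddest of the 8 mandibular columns for 37 genes.

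Comparing mandibular molars with lower incisors asks how the forms of teeth of the same jaw differ. Of the 40 genes, 14 had a higher signal in incisors and 0 a higher one in molars at an adjusted p under 0.1 and a fold change above 1.2 (limma), while 2.18% of the 29258 probe sets tested had a higher signal in incisors and 2.75% in molars. The log2 difference, molar minus incisor, was -0.97 to -0.01 with a median of -0.47, and -0.02 over all probe sets tested. At an unadjusted p under 0.05, 26 were higher in incisors (8.86% of all probe sets) and 0 in molars, and no gene exceeded a fold of 2. The 14 were all 4 acetylcholine receptor genes, 3 of 5 genes of the calcium store and its trigger (*Cacna1s*, *Atp2a1*, *Casq2*), *Actn3* and *Des* of the Z disc, *Myl4* and *Mybph* of the thick filament, *Actc1*, *Tnnt1* and *Klhl31*. The number called depended on single samples. It was 24 without mandibular molar 2, 3 without lower incisor 3, and 5 without lower incisor 2, mandibular molar 5 or mandibular molar 6. It was 6 without lower incisor 1, 7 without mandibular molar 1, 8 without lower incisor 4 and 9 without mandibular molar 7. The share of all probe sets called without each sample is not given here. A change in the members thus cannot be told from one in all probe sets. The number was 2 with mandibular molars 1 to 4 only, and also 2 with the replicate number as a block.

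Between mandibular and maxillary molars, a comparison of the same tooth in both jaws, 26 of the 40 were higher in mandibular molars and 0 in maxillary molars by the same test. Of the 29068 probe sets tested, 1.01% were higher in mandibular and 1.18% in maxillary molars. The log2 difference was 0.08 to 2.14 with a median of 0.76, against 0.02 over all probe sets. At an unadjusted p under 0.05, 37 were higher in mandibular molars (9.68% of all). An adjusted p under 0.1 together with a fold above 2 was reached by 29 probe sets (0.0998%), and 14 of these 29 were members: *Myh3*, *Myh8*, *Myl1*, *Myl4*, *Acta1*, *Actc1*, *Neb*, *Tnnt2*, *Tnni1*, *Actn2*, *Ttn*, *Des*, *Chrna1* and *Ostn*. Every mandibular sample lay above every maxillary sample for 29 of the 40 genes and for 2.08% of all probe sets. The count of 26 fell to 7 without maxillary molar 1, 8 without maxillary molar 2 and 13 without maxillary molar 3. It fell to 14 without maxillary molar 4 and 15 without mandibular molar 3 or 4. For these fits too, the share of all probe sets called is not given here. Both comparisons share the mandibular samples, so a low or high mandibular sample moves both. Passing in both were 10 genes: *Myl4*, *Mybph*, *Actc1*, *Tnnt1*, *Des*, *Cacna1s*, *Atp2a1*, *Chrna1*, *Chrng* and *Klhl31*. In neither did *Myh7*, *Myl2*, *Myl3*, *Tpm2*, *Tnnc1*, *Tnnc2*, *Tcap*, *Synpo2l*, *Trdn* and *Ckm* pass. The 10 genes passing in both were not equally stable with 1 sample left out. Against incisors, *Mybph* lost its call in 11 such fits, *Des* in 9, *Cacna1s* in 8, and *Myl4* and *Actc1* in 7. *Atp2a1* lost it in 6, *Klhl31* in 5, *Tnnt1* in 2, and *Chrna1* and *Chrng* in 0. Against maxillary molars it was 7 for *Cacna1s* and *Atp2a1*, 6 for *Mybph* and *Klhl31*, 2 for *Chrna1* and *Chrng*, and 0 for the others.

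**Figure D2:**
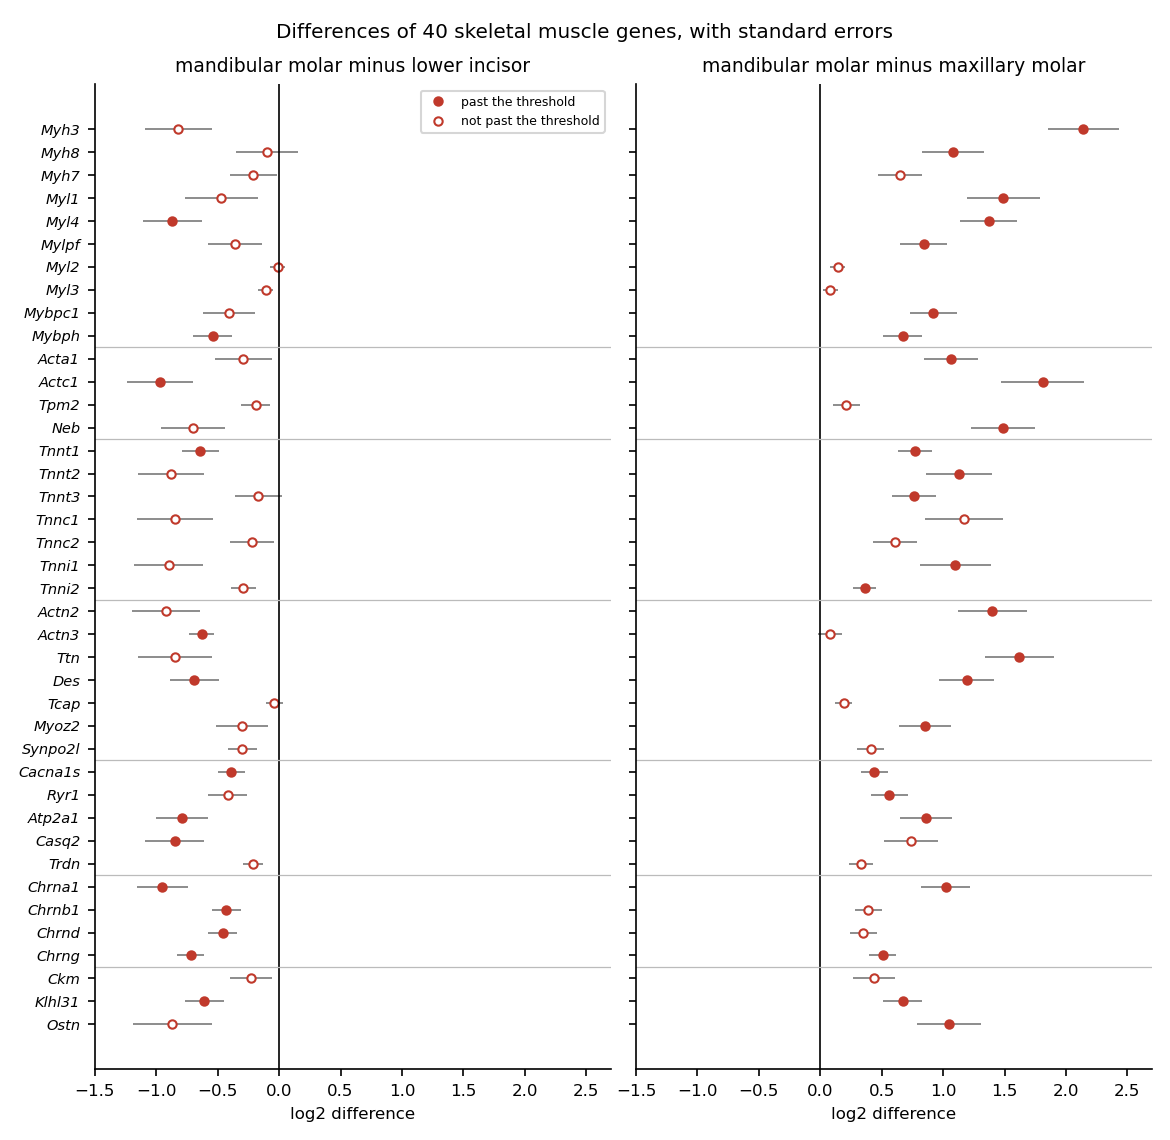
Log2 difference (x axis) with its standard error for each of the 40 genes, mandibular molar minus lower incisor on the left and minus maxillary molar on the right, with filled points past the threshold (adjusted p under 0.1 and fold above 1.2). All left-hand values lie at or below -0.01 and all right-hand values at or above 0.08.

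Of the 10 genes of the thick filament and its light chains, 7 were higher in mandibular than in maxillary molars and 2 were higher in incisors than in mandibular molars. *Myh3*, the embryonic myosin heavy chain, had log2 signals of 9.64, 9.77, 9.67 and 9.48 in the incisors, 8.17 to 10.05 with a median of 8.70 in the mandibular molars, and 6.36, 6.88, 6.50 and 6.98 in the maxillary molars. The maxillary samples all lay below the mandibular ones, while mandibular molar 2 exceeded every incisor. Its difference from maxillary molars was 2.14 (standard error 0.29, 4.4-fold, adjusted p = 0.00255), the greatest among the 40, and its difference from incisors was -0.82 (0.27, adjusted p = 0.137). *Myl4*, an essential light chain of embryonic and atrial muscle, was 10.16, 10.40, 10.31 and 10.58 in incisors, 8.85 to 10.42 with a median of 9.41 in mandibular molars and 7.96, 8.12, 8.07 and 8.36 in maxillary molars. It passed in both comparisons, at -0.87 (0.24, adjusted p = 0.0697) and 1.37 (0.23, adjusted p = 0.0135). The perinatal heavy chain *Myh8* was higher in mandibular than in maxillary molars by 1.08 (0.25, adjusted p = 0.0546), with -0.10 (0.25) against incisors. The fast light chains *Myl1* and *Mylpf* were higher by 1.49 (0.30) and 0.84 (0.19) against maxillary molars. *Myl2* and *Myl3*, the light chains of slow and ventricular muscle, differed by 0.14 (0.06) and 0.08 (0.06) there, and neither passed.

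In the thin filament, *Actc1*, the actin of the heart and of embryonic skeletal muscle, was 11.52, 11.54, 11.67 and 11.91 in incisors, 9.83 to 11.61 with a median of 10.66 in mandibular molars and 8.06, 8.94, 8.72 and 9.79 in maxillary molars. Each maxillary sample lay below each mandibular sample, the nearest pair by little, and mandibular molar 2 reached into the incisor range. The difference from incisors was -0.97 (standard error 0.27, 1.96-fold, adjusted p = 0.0736) and that from maxillary molars 1.81 (0.34, 3.51-fold, adjusted p = 0.0204). *Acta1*, the skeletal muscle actin, and *Neb*, which spans the thin filament, were higher in mandibular than in maxillary molars by 1.06 (0.22) and 1.49 (0.26), and did not pass against incisors at -0.29 (0.23) and -0.70 (0.26). The tropomyosin gene *Tpm2*, which smooth muscle also expresses, passed in neither comparison, at -0.19 (0.12) and 0.21 (0.11).

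Among the 7 troponin subunits, 5 were higher in mandibular than in maxillary molars and 1, the slow troponin T gene *Tnnt1*, was higher in incisors than in mandibular molars (-0.64, standard error 0.15, adjusted p = 0.0405). *Tnnt2*, the troponin T of the heart and of early skeletal muscle, was 9.45, 9.73, 9.76 and 9.89 in incisors, 8.25 to 10.03 with a median of 8.85 in mandibular molars and 7.45, 7.92, 7.55 and 7.87 in maxillary molars. Mandibular molar 2 was above all incisors for this gene, and the molar groups did not overlap. It was higher in mandibular than in maxillary molars by 1.13 (0.27, adjusted p = 0.0679), and the difference from incisors, -0.88 (0.27), fell just short (adjusted p = 0.105). *Tnnc1*, the calcium-binding subunit of slow and cardiac muscle, was 8.64, 8.85, 8.93 and 8.78 in incisors, 7.08 to 9.37 with a median of 7.90 in mandibular molars and 6.56, 6.68, 6.72 and 7.16 in maxillary molars. Its mandibular values had a wide spread, and its difference of 1.17 from maxillary molars (0.32, adjusted p = 0.108) did not pass. The slow and fast troponin I genes *Tnni1* and *Tnni2* were both higher in mandibular than in maxillary molars, 2.14-fold and 1.28-fold, as was the fast troponin T gene *Tnnt3*, 1.7-fold.

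The 7 genes of the Z disc, titin and desmin were split. *Actn2*, *Ttn*, *Des* and *Myoz2* were higher in mandibular than in maxillary molars and *Actn3* and *Des* higher in incisors than in mandibular molars. *Actn2*, a sarcomeric alpha-actinin that crosslinks actin at the Z disc, was 9.31, 9.44, 9.56 and 9.57 in incisors, 7.78 to 9.71 with a median of 8.44 in mandibular molars and 6.91, 7.18, 7.11 and 7.40 in maxillary molars. *Ttn*, the giant elastic protein that links Z disc and thick filament, was 8.82, 8.90, 9.27 and 8.18 in incisors, 7.33 to 9.16 with a median of 7.86 in mandibular molars and 6.17, 6.40, 6.10 and 6.65 in maxillary molars. The maxillary groups of both genes lay apart from the mandibular groups, by 1.40 (standard error 0.28, adjusted p = 0.0297) and 1.62 (0.28, 3.07-fold, adjusted p = 0.0133). *Actn3*, the alpha-actinin of fast fibres, had another pattern. It was 8.41, 8.37, 8.27 and 8.58 in incisors, 7.51 to 8.09 with a median of 7.77 in mandibular molars and 7.85, 7.62, 7.64 and 7.71 in maxillary molars. All incisors exceeded all mandibular molars (-0.63, standard error 0.10, adjusted p = 0.00455), but the molar groups overlapped (0.08, standard error 0.10, adjusted p = 0.691). *Tcap*, which caps titin, differed by -0.04 (0.07) and 0.19 (0.07) and passed in neither comparison.

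Of the 5 genes of excitation-contraction coupling and the calcium store, 3 passed in each comparison, with *Cacna1s* and *Atp2a1* in both, *Casq2* against incisors and *Ryr1* against maxillary molars. *Atp2a1*, the calcium pump of fast fibres, was 8.19, 8.32, 8.29 and 8.53 in incisors, 7.07 to 8.38 with a median of 7.43 in mandibular molars and 6.56, 6.56, 6.62 and 6.97 in maxillary molars. Mandibular molar 2 was the one molar within the incisor range. The differences were -0.79 (standard error 0.21, adjusted p = 0.0596) and 0.86 (0.21, adjusted p = 0.0759). The voltage sensor *Cacna1s* differed by -0.39 (0.11) and 0.44 (0.11), and the release channel *Ryr1* by -0.42 (0.16) and 0.56 (0.15). *Trdn*, which ties the release channel to calsequestrin, was 7.95, 7.79, 7.85 and 7.73 in incisors, 7.35 to 7.85 with a median of 7.64 in mandibular molars and 7.17, 7.21, 7.62 and 7.15 in maxillary molars. Its groups overlapped between the molars and it passed in neither comparison. *Trdn* was covered by 19 probe sets, of which the one with the highest mean was used. Its group means were 7.83, 7.61 and 7.29 in incisors, mandibular and maxillary molars, and those of the next brightest 7.40, 7.18 and 6.42. Not all had this order, another standing at 6.50, 6.53 and 5.78.

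The acetylcholine receptor genes were the only role group of which each member passed against incisors (4 of 4). Their median difference of -0.59 was not the largest. It was -0.64 for troponin subunits, -0.63 for the Z disc group, -0.61 for the last group and -0.38 to -0.49 for the others. Leaving out 1 sample lost the call of *Chrnb1* in 8 fits, of *Chrnd* in 1, and of *Chrna1* and *Chrng* in 0. With mandibular molars 1 to 4 only, *Chrng* alone of these genes passed. *Chrna1*, which encodes the subunit that binds acetylcholine, was 8.30, 8.00, 8.02 and 8.64 in incisors, 6.77 to 8.06 with a median of 7.24 in mandibular molars and 6.17, 6.18, 6.11 and 6.59 in maxillary molars. The tooth types stood apart except that mandibular molar 2 lay above incisors 2 and 3. The differences were -0.95 (standard error 0.21, 1.94-fold, adjusted p = 0.0242) and 1.02 (0.20, 2.03-fold, adjusted p = 0.0252). *Chrng*, the subunit of the fetal receptor, was 7.12, 7.48, 7.40 and 7.55 in incisors, 6.36 to 6.98 with a median of 6.65 in mandibular molars and 5.87, 6.11, 6.31 and 6.35 in maxillary molars. No sample of one tooth type reached another, and both differences passed, at -0.72 (0.11, adjusted p = 0.00224) and 0.51 (0.11, adjusted p = 0.0485). *Chrnd*, which lies 5.7 kb from *Chrng* (chr1:87190597-87200070 and chr1:87205811-87211835), was higher in incisors (-0.46, standard error 0.12, adjusted p = 0.052) and did not pass between molars (0.35, standard error 0.11, adjusted p = 0.156). *Chrnb1* had -0.43 (0.12, adjusted p = 0.0841) and 0.39 (0.11, adjusted p = 0.12). Every incisor exceeded every mandibular molar for *Actn3*, *Chrnd* and *Chrng* alone among the 40 genes, and for 1.77% of all probe sets.

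In the last group, *Ckm*, the creatine kinase that buffers ATP, was 7.46, 7.18, 7.49 and 7.49 in incisors, 6.81 to 7.74 with a median of 7.01 in mandibular molars and 6.57, 6.82, 6.85 and 6.68 in maxillary molars, and passed in neither comparison. *Klhl31*, a kelch-like protein of the sarcomere, passed in both, at -0.61 (standard error 0.16, adjusted p = 0.0596) and 0.67 (0.16, adjusted p = 0.0721). *Ostn*, a secreted peptide of muscle and bone, was 6.84, 7.83, 6.19 and 7.17 in incisors, 5.25 to 6.66 with a median of 6.37 in mandibular molars and 5.15, 5.09, 5.37 and 4.78 in maxillary molars. As for *Trdn*, mandibular molar 8 was its lowest mandibular sample, and it overlapped the maxillary range. The signal was higher in mandibular than in maxillary molars by 1.05 (0.26, adjusted p = 0.0759).

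**Figure D3:**
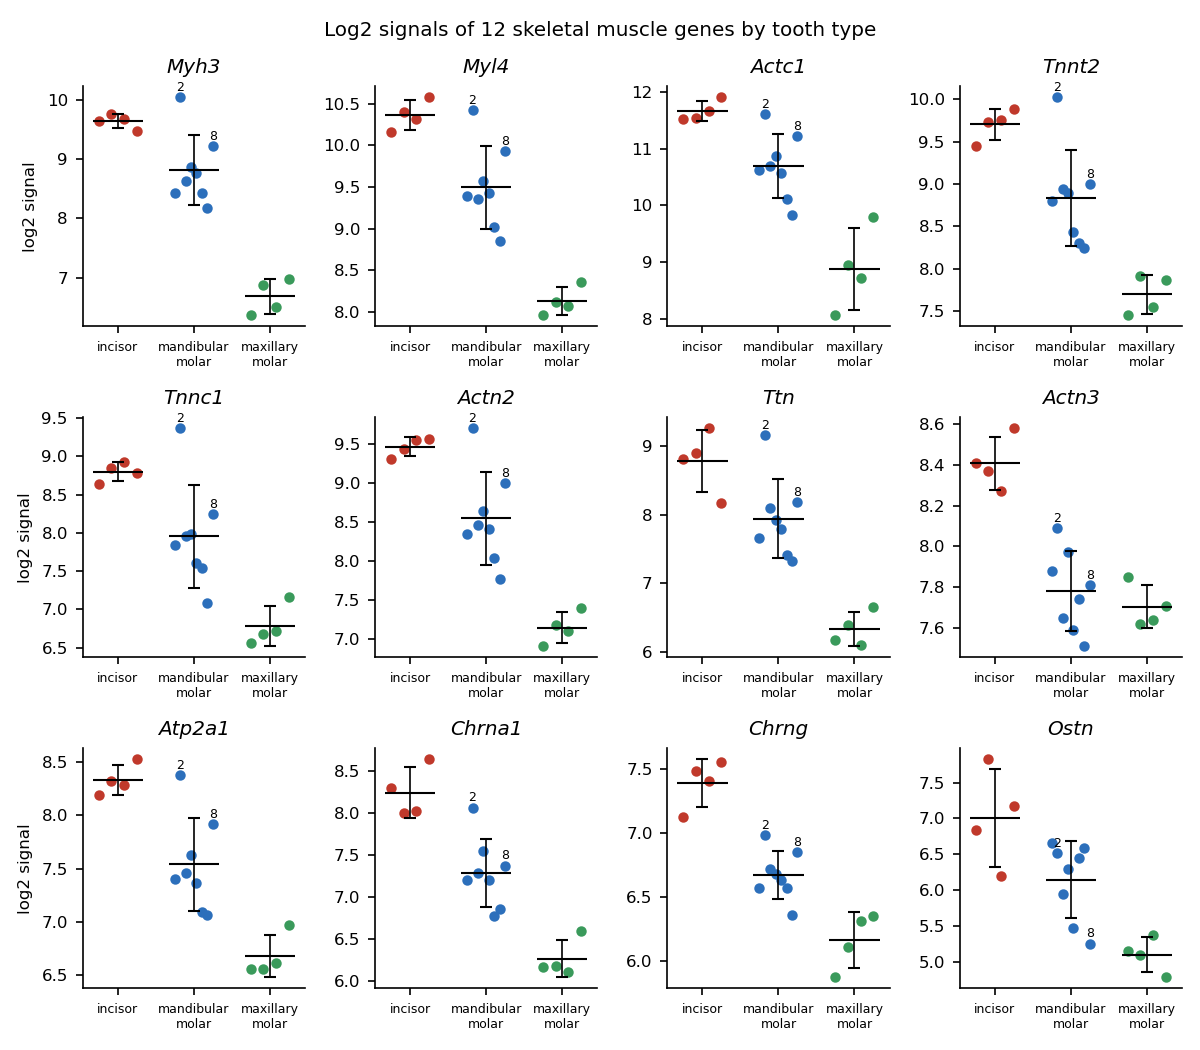
Log2 signal (y axis, a scale for each panel) of 12 genes in each sample by tooth type, with the mean (line) and SD (bar), and mandibular molars 2 and 8 marked by number. Mandibular molar 2 reaches or passes the incisor range in every panel except those of *Actn3* and *Chrng*.

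Mandibular molars varied among themselves, with an SD of 0.33 for the mean of the 40 genes beside 0.06 in incisors and 0.11 in maxillary molars. The range of a gene over the 8 mandibular samples was 0.26 to 2.30 with a median of 1.21, and the median range over 4 samples was 0.38 in incisors and 0.30 in maxillary molars. Mandibular molar 2 was the highest of the 8 for 37 of the 40 genes, above the lowest incisor for 35 and above every incisor for 16. The same sample had the lowest mean of all 16 for dental epithelium markers, at 9.50 beside 10.04 to 10.35 in the other mandibular molars, and for keratinizing epithelium markers, at 6.45. The part of this in its muscle signals was not tested. Mandibular molar 7 was the lowest of the 8 for 29 genes. The share of all probe sets for which mandibular molar 2 was highest, or mandibular molar 7 lowest, was not computed. These counts thus do not tell whether the 2 samples stand apart for muscle genes or for probe sets in general. The mean of the 40 genes in mandibular molars 1 to 8 was 7.52, 8.26, 7.53, 7.62, 7.40, 7.30, 7.17 and 7.75, against 8.01 to 8.14 in incisors and 6.61 to 6.87 in maxillary molars. Only mandibular molar 2 reached the incisor range by this mean and none reached the maxillary range. With mandibular molar 2 set aside, every incisor lay above every mandibular molar for 21 of the 40 genes, instead of 3, and for 2.36% of all probe sets. Leaving out a mandibular sample cannot lower this count of members, and the sample was picked for its high values. The rise is therefore a description.

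Members varied together from sample to sample. Pearson's correlation of a gene with the mean of the other 39 had a median of 0.94 over the 16 samples and exceeded 0.9 for 31 genes, and within the 8 mandibular molars it had a median of 0.94 and exceeded 0.9 for 23. These samples share an array normalization and, across tooth types, the group differences, so the values are a description. *Actn2* and *Tnnc1* were closest to the other members within the mandibular molars, both at 0.99. *Myl3* at -0.05, *Trdn* at -0.10 and *Ostn* at -0.08 did not share the order of the others there, and the next lowest was *Tcap* at 0.70. Neighbouring genes on a chromosome included *Tnni1* and *Tnnt2* (25.3 kb apart on chromosome 1), *Tnni2* and *Tnnt3* (54.4 kb on chromosome 7) and *Myh3* and *Myh8* (174.8 kb on chromosome 11).

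The median difference over the 40 genes depended on which mandibular samples were used, though not that of every gene. *Chrnb1* stood at -0.42 against incisors with mandibular molars 1 to 4 and at -0.43 with 5 to 8. Over all probe sets, the median correlation between samples was 0.9916 for mandibular molars 5 to 8 with the maxillary molars, 0.9851 for mandibular molars 1 to 4 with the incisors, and 0.9845 between these parts of the mandibular samples. The labels do not name such sets, and values for each are given side by side. Mandibular molars 1 to 4 against 5 to 8 had 1 member past the threshold, *Des* at 0.60 (standard error 0.16, adjusted p = 0.0597), while 4.49% of 28936 probe sets were higher in the first and 7.29% in the second. The median of the 40 differences was 0.33, against 0.01 over all probe sets. The count of 1 member became 0 without mandibular molar 5, 6 or 7, 2 without mandibular molar 3 and 3 without mandibular molar 4. The share of all probe sets called in those fits is not given here.

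With mandibular molars 1 to 4 alone, 2 members were higher in incisors, *Actn3* at -0.51 (0.11) and *Chrng* at -0.65 (0.12), with 0.832% of all probe sets and a median of -0.39 over the 40. With mandibular molars 5 to 8 alone, 31 were higher in incisors (8.88% of all probe sets), with a median of -0.59. Against maxillary molars, mandibular molars 5 to 8 gave 11 higher members (0.54% of all probe sets), 6 of them above a fold of 2, with a median of 0.61. Those were *Myh3* at 1.96 (0.23), *Myl1*, *Myl4*, *Neb*, *Actn2* and *Ttn*, and the other 5 were *Mylpf*, *Tnnt1*, *Tnnt3*, *Des* and *Chrna1*. Mandibular molars 1 to 4 gave 35 (8.48% of all probe sets), 18 of them above a fold of 2, with a median of 0.96. None of these 4 fits had a member past the threshold in the opposite direction.

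**Figure D4:**
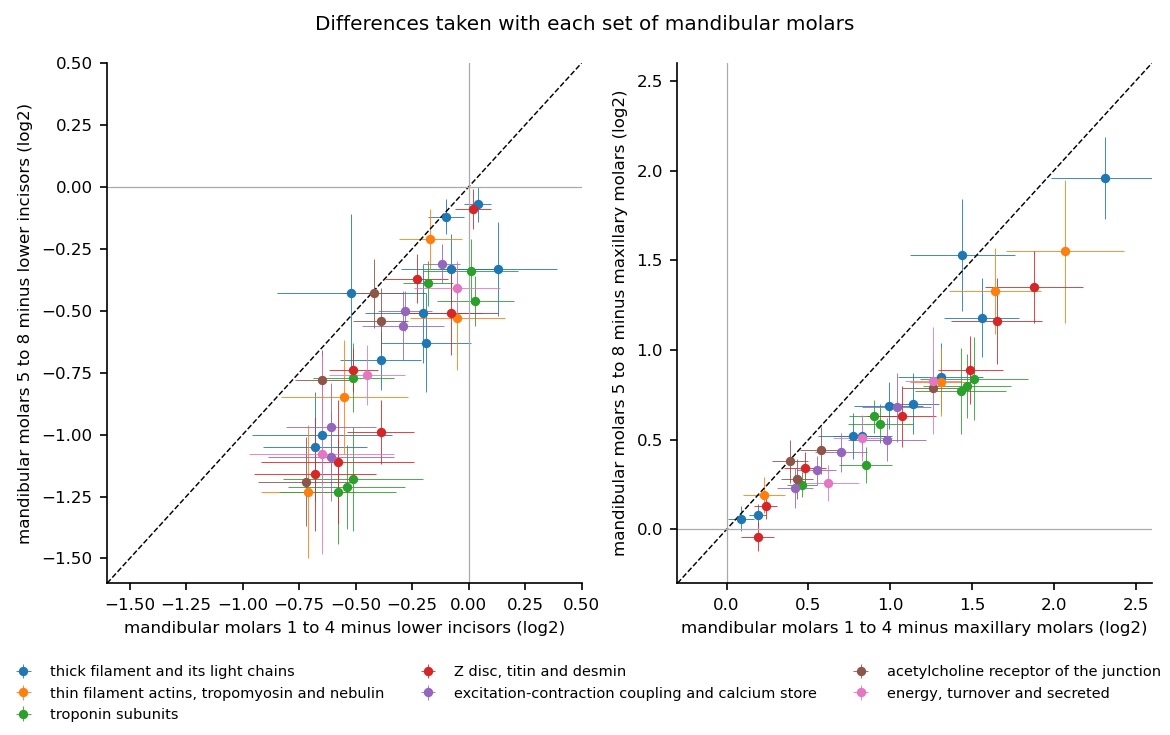
Log2 difference of each of the 40 genes with its standard error, taken with mandibular molars 1 to 4 (x axis) and 5 to 8 (y axis) against the same incisors (left) or the same maxillary molars (right), coloured by role, with a dashed line of equality. Most points lie below the line, that is at lower mandibular values with mandibular molars 5 to 8, and the axes of a panel share the incisor or maxillary samples.

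Other genes of skeletal muscle were read for context. Of 94 found 90 were tested, and 10 were higher in incisors and 6 in mandibular molars, with a median of -0.15. Against maxillary molars 13 were higher in mandibular molars and 2 in maxillary molars, with a median of 0.23. *Prkcq*, a protein kinase C of muscle and T cells, was higher in incisors (-1.14, standard error 0.15) and higher in mandibular than in maxillary molars (0.66, standard error 0.14). *Smyd1*, a muscle histone methyltransferase, had -0.60 (0.18) and 0.68 (0.15), and both passed. Higher in incisors were also *Klhl41* at 8.36 ± 0.15 against 7.36 ± 0.64 in mandibular molars, *Mylk4* at -0.98 (0.24), *Mymk*, the fusion protein of myoblasts, at -0.93 (0.24), and *Cdh15*, the cadherin of myoblasts, at -0.67 (0.17). *Vgll2*, a cofactor of TEAD factors, was higher in mandibular than in maxillary molars by 0.68 (0.14), and *Rbfox1*, a splicing factor shared with neurons, was higher in mandibular molars than in incisors by 0.72 (0.07). The 2 genes higher in maxillary molars were *Fbxo32* at -0.56 (0.12) and *Dmd* at -0.57 (0.07), named after their values were seen.

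Among the myogenic regulators, *Myod1*, which commits cells to myoblasts, was 8.52 ± 0.20 in incisors, 7.66 ± 0.37 in mandibular molars and 6.78 ± 0.17 in maxillary molars, and passed in both comparisons, at -0.86 (standard error 0.18, adjusted p = 0.0222) and 0.88 (0.18, adjusted p = 0.0359). *Myog*, which drives differentiation, was 7.90 ± 0.20, 7.06 ± 0.53 and 6.17 ± 0.28, with differences of similar size that did not pass, at -0.84 (0.25, adjusted p = 0.101) and 0.89 (0.26, adjusted p = 0.132). *Myf5*, an early determination factor, passed between the molars at 0.68 (0.13, adjusted p = 0.0221) and had -0.33 (0.14, adjusted p = 0.228) against incisors. *Myf6* had -0.20 (0.08) and 0.10 (0.09) and passed in neither. Of the 12 myogenic regulators tested, 3 were higher in incisors than in mandibular molars, with differences over the list of -3.66 to 0.12 and a median of -0.33. Between the molars 2 were higher in the mandible and 0 in the maxilla, with differences of -0.25 to 0.89 and a median of 0.21. At an unadjusted p under 0.05, 5 were higher in mandibular and 2 in maxillary molars. Among those higher in incisors was *Pax3* at -3.66 (0.27), named after its value was seen, which also acts in neural crest.

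Markers of other tissues that a dissection could carry were read alongside. For 8 smooth muscle markers the mean log2 signal was 7.59 to 7.71, 7.53 to 7.79 and 7.54 to 7.64 in incisors, mandibular and maxillary molars. Against incisors 0 passed the test, with 1 at an unadjusted p under 0.05, and 1 was higher in mandibular than in maxillary molars. For 9 heart markers it was 6.59 to 6.77, 6.42 to 6.60 and 6.43 to 6.54, with 2 higher in incisors and 1 higher in maxillary molars. The list means overlapped between the molars for both, unlike the mean of the 40 muscle genes, of which 29 were without overlap gene by gene. Of 6 tendon markers, 4 were higher in mandibular molars than in incisors and 1 higher in incisors, with means of 7.61 to 8.41, 8.30 to 8.69 and 8.07 to 8.46. Between molars 1 was higher in each jaw. Of 12 cartilage markers, 9 were higher in incisors and 1 in mandibular molars, with means of 7.20 to 7.40 in the mandibular and 7.33 to 7.40 in the maxillary samples. The incisors were split, incisors 1 and 4 standing at 8.51 and 8.63 and incisors 2 and 3 at 7.44 and 7.58, while the mean of the 40 muscle genes was 8.01 and 8.14 in the former and 8.08 and 8.12 in the latter. Between the molars 1 of the 12 passed, higher in maxillary molars. Of 6 mast cell markers tested, 4 were higher in incisors and 1 in mandibular molars, with means over the list of 6.10 to 6.75, 5.60 to 6.12 and 5.49 to 5.90 and with *Ms4a2* and *Fcer1a* at 5 or below in every sample. Of 7 keratinizing epithelium markers, 3 were higher in incisors, with means of 7.41 to 7.87 in incisors against 6.45 to 7.54 and 6.69 to 7.39. Of 10 neuron and nerve markers, 3 were higher in incisors and 1 in mandibular molars, and between molars 2 were higher in mandibular and 1 in maxillary molars, with means of 7.19 to 7.36, 6.91 to 7.33 and 6.85 to 6.96. None of 6 endothelial or 6 erythroid markers passed in either comparison, at an unadjusted p under 0.05 for 2 and 1 of them against incisors and 0 and 2 between the molars. The endothelial mean was 9.19 to 9.56, 9.36 to 9.66 and 9.46 to 9.60, and the erythroid mean 8.65 to 8.90, 7.94 to 9.20 and 7.99 to 8.53. Mandibular molar 8, second among mandibular molars for muscle, was the lowest of all samples for erythroid markers at 7.94. The order incisor, mandibular, maxillary was shared by the means of other lists. It was 6.69, 6.52 and 6.46 for heart and 7.26, 7.16 and 6.90 for neuron and nerve markers. Erythroid markers had 8.79, 8.65 and 8.15, and mast cell markers 6.45, 5.88 and 5.64. In each of these, every incisor lay above every maxillary molar. Smooth muscle markers had the order too, at 7.66, 7.64 and 7.59, but their incisor and maxillary samples overlapped. Tendon, cartilage, keratinizing epithelium and endothelial markers did not have this order. The part of these tissues in the muscle differences was not tested.

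**Figure D5:**
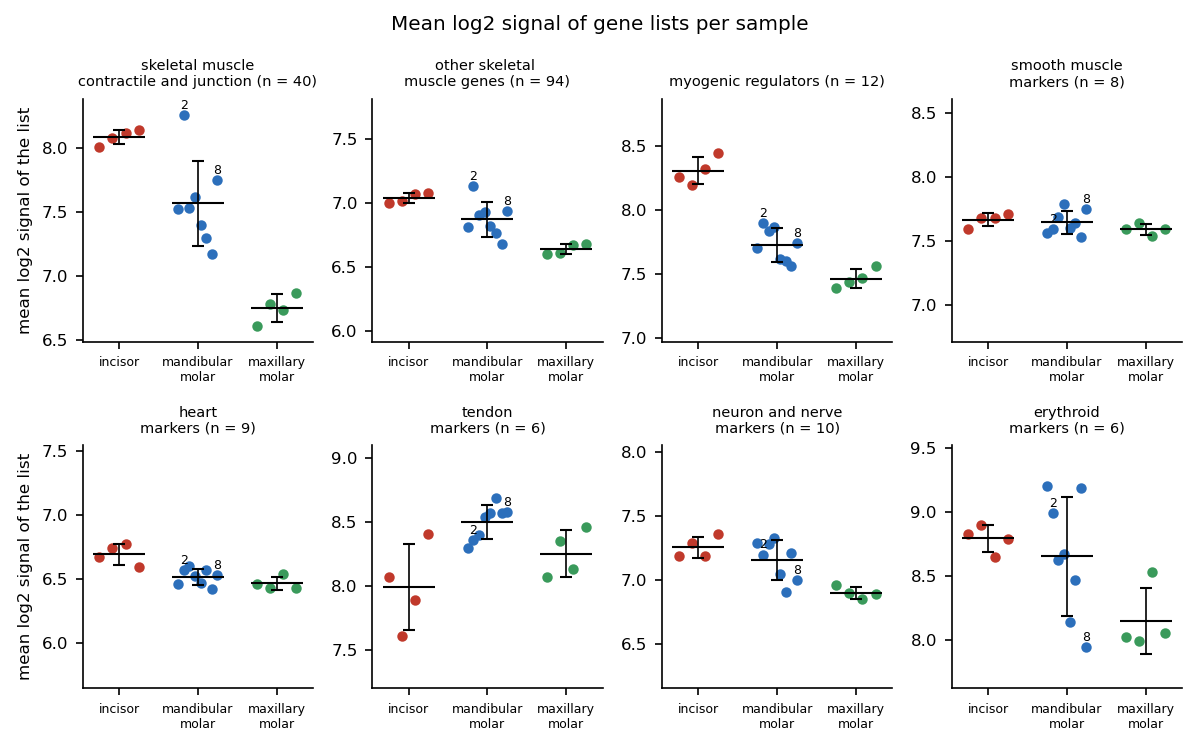
Mean log2 signal of 8 gene lists (y axis, equal span in each panel) in each sample by tooth type, with the mean (line) and SD (bar), and mandibular molars 2 and 8 marked. The 40 muscle genes run from 8.01 to 8.14 in incisors to 6.61 to 6.87 in maxillary molars, while smooth muscle markers stay between 7.53 and 7.79 in all samples.

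Outside the muscle lists used here, the 10 genes whose signal was most like the mean of the 40 over the 16 samples were *Rxrg* (Pearson's r = 0.979), *Fgfr4* (0.972), *Hjv* (0.965), *Ablim3* (0.959), *Fitm1* (0.959), *Arpp21* (0.956), *Mrln* (0.954), *Tm6sf1* (0.950), *Dll1* (0.947) and *Sema6b* (0.946). *Rxrg*, a retinoid receptor, was 7.52 ± 0.22 in incisors, 6.75 ± 0.42 in mandibular molars and 5.75 ± 0.28 in maxillary molars. *Hjv*, a membrane coreceptor for bone morphogenetic proteins, was 8.23 ± 0.21, 7.29 ± 0.47 and 6.51 ± 0.16. *Fgfr4*, a fibroblast growth factor receptor, was 7.92 ± 0.15, 7.49 ± 0.31 and 6.86 ± 0.05. These genes were picked for this likeness, so their levels are a description. The lists do not hold every gene of muscle, so a gene outside them may still be one.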

How the data were processed

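Total RNA of 16 pools of tooth germs was hybridized, each to an Affymetrix Mouse Gene ST array. The authors deposited log2 signals of 35556 probe sets, made by RMA in Affymetrix Expression Console 1.1 (background correction, quantile normalization, median polish). These were used as deposited. Probe sets were named through the GEO platform annotation: 21789 carried 1 symbol, 1621 several and 12146 none. Each gene was read from its single-symbol probe set with the highest mean.

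Samples were grouped by the titles. Each comparison was fitted on its own samples with lmFit and eBayes (limma 3.58.1, R 4.3.3) across probe sets exceeding 5 (log2) in 1 or more of them, without a block, with Benjamini-Hochberg adjustment over all of them. A gene passed at an adjusted p under 0.1 and a fold above 1.2. The study used that fold for selected signalling pathways and homeobox genes, and a fold above 2 for other genes. Errors of differences are standard errors. Arrays have no read depth, so precision rests on the number of samples. The procedure was tested on simulated data. The 40 genes, the lists and the split of mandibular molars were chosen with earlier results of these data known. Named genes were the 40, up to 8 other muscle genes with the largest change, the 4 myogenic factors and the 10 genes most like the members, except where stated. Alternatives were other filters, normalizations, a t-test, array weights, a joint fit, 1 probe set per gene, a replicate block, sample sets and each sample left out.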

Additional observations from a re-analysis of the deposited data

Results flagged for a closer look

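Of 123 groups of 4 or 8 samples tested (the 40 genes and their mean in each tooth type), 13 had a sample far from its group by Dixon's test, which by chance flags about 1 in 20 groups. Mandibular molar 2 was the high sample for *Mybph* (8.38), *Tnnt1* (8.32), *Tnnt2* (10.03), *Tnnt3* (9.09), *Ttn* (9.16) and *Casq2* (7.52). Among incisors, incisor 4 stood out for *Casq2* at 7.87 and for *Tpm2* at 9.62, and incisor 2 for *Ckm* at 7.18. Among maxillary molars, sample 1 stood out for *Mybph* (6.79), sample 3 for *Trdn* (7.62), and sample 4 for *Atp2a1* (6.97) and *Chrna1* (6.59).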

How the results depend on the processing

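The 14 genes higher in incisors than in mandibular molars became 0 above a fold of 2, 5 by the methods' t-test, 27 with array weights, 23 with 1 probe set per gene, 2 with mandibular molars 1 to 4 only and 31 with 5 to 8 only. Leaving out 1 sample gave 3 (without incisor 3) to 24 (without mandibular molar 2). The 26 higher in mandibular than in maxillary molars became 14 above a fold of 2, 13 by the t-test and 11 with mandibular molars 5 to 8 only, and 7 (without maxillary molar 1) to 31 (without mandibular molar 7) with 1 sample left out. Between the mandibular sets the 1 gene became 0 above a fold of 2 and ranged from 0 to 3 with 1 sample left out. Other filters kept all these counts within 1.5 times, as did the normalizations and the fit of all 3 tooth types for the comparisons of tooth types, for which they were run. The cause of the shifts was not tested, except that a higher fold threshold can only lower a count. The share of all probe sets called is given here for the sets of mandibular molars and for the fold above 2 between molars. For the other alternatives it is not given. There, a change in the members cannot be told from one in all probe sets.

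With the replicate number as a block, 2 genes were higher in incisors and 35 in mandibular molars than in maxillary molars. Numbers 5 to 8 occur only among mandibular molars, so this fit also takes those samples out of the difference, and its counts equal those with mandibular molars 1 to 4 only. Samples with the same number deviated from their group means with correlations of 0.08 to 0.50 between incisors and mandibular molars and 0.00 to 0.34 between molars. Maxillary molars were set only against mandibular molars 1 to 4, so a match with mandibular molars 5 to 8 was not looked for. These values do not settle whether the numbers mark pairs, and the main fits used no block. Of the 4 numbers, 2 incisors had their highest correlation with the mandibular molar of their own number, and 2 mandibular molars with the incisor of theirs. Between the molars this held for 1 mandibular molar and 3 maxillary molars. Under the block and with mandibular molars 1 to 4 only, the difference from incisors turned to 0.13 for *Myh8*, 0.04 for *Myl2*, 0.01 for *Tnnt3*, 0.03 for *Tnnc2* and 0.02 for *Tcap*. It also turned for *Myl2* (0.04 by quantile normalization, 0.05 by cyclic loess, -0.03 to 0.01 leaving out 1 sample) and *Tcap* (0.02, 0.03, and -0.08 to 0.01). *Actn3* was -0.04 against maxillary molars with mandibular molars 5 to 8 only. None of these turned values was past the threshold.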
